A study of Mus musculus with 6 samples.

Results

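The mRNAs of 9 receptors that set the response of fat to noradrenaline and to local signals that restrain it were followed through 6 libraries of mouse brown adipose tissue. The receptors were taken by name (Adrb1, Adrb3, Adra1a, Adra1b, Adra2a, Adora1, Adora2a, Hcar1 and Ptger3) from a table of 54385 genes, and all 9 had a row. The tested libraries were 3 from ADCY3∆AT mice, which lack Adcy3-AT, a form of adenylyl cyclase 3, and they were set against 3 libraries from wild-type (WT) mice. All mice were C57BL/6N, 20 weeks old and fed chow. The sample labels call the tissue interscapular, the design text inguinal. The labels do not say in which cells the deletion was made.

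Beta-adrenergic receptors couple to the stimulatory G protein Gs, which turns on adenylyl cyclase. The cyclic AMP made activates protein kinase A, and in brown adipocytes this drives lipolysis and heat production. Alpha-1 adrenergic receptors act through Gq and calcium instead. The antilipolytic receptors for adenosine (Adora1), lactate (Hcar1), prostaglandin E2 (Ptger3) and, among adrenergic receptors, Adra2a couple to Gi and lower cyclic AMP.

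Library totals ran from 13758492 to 19592156 estimated counts. As a check of the labels, a row outside the annotation, ENSMUSG66666620654, whose identifier ends like that of Adcy3, held 1.27, 0 and 0 CPM (counts scaled to a common library size) in ADCY3∆AT libraries, against 215, 197 and 118 CPM in WT libraries. The Adcy3 row averaged 201 ± 36.5 CPM in ADCY3∆AT and 208 ± 40.7 CPM in WT (SD, n = 3 each; edgeR adjusted p = 0.894). Brown adipocyte markers were abundant in each library (Ucp1 averaged 4239 ± 231 CPM in ADCY3∆AT and 4786 ± 963 CPM in WT, SD, n = 3 each; named after its value was seen), and so was Fabp4, a fatty acid carrier (6803 ± 279.6 CPM in ADCY3∆AT and 7776 ± 1118 CPM in WT). The summed level of the 9 brown adipocyte markers ran from 14792 to 15545 CPM in ADCY3∆AT and from 16554 to 16962 CPM in WT, with 0 of 9 called by edgeR or limma-voom and 1 by DESeq2. The 1 with an unadjusted edgeR p under 0.05 was Ppargc1a, a thermogenic coactivator (38.4 ± 11.1 CPM in ADCY3∆AT and 19.2 ± 4.83 CPM in WT, SD, n = 3 each; edgeR adjusted p = 0.0609). Skeletal muscle RNA moved with genotype: 12 muscle markers summed to 2.97, 1.93 and 1.47 CPM in ADCY3∆AT replicates 1, 2 and 3, against 24.1, 116 and 698 CPM in WT replicates 1, 2 and 3. Of the 10 muscle markers tested, 7 were called lower by edgeR (Myh4, Atp2a1 and Tnni2 with the smallest p), 10 by DESeq2 and 0 by limma-voom. In all ADCY3∆AT libraries 1 marker was at 0. Myh4, Atp2a1 and Tnni2 held at most 0.220, 0.330 and 0.0664 CPM in any ADCY3∆AT library. They passed the filter on low counts through WT alone, so they could only be called lower. The edgeR count of muscle markers called was 0 without any 1 ADCY3∆AT library, and 10, 1 and 5 without WT replicates 1, 2 and 3. The part of these shifts in the receptor results was not tested.

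The receptors did not move as a block. Adrb3 and Adra1a rose in ADCY3∆AT, Adrb1 and Hcar1 fell, and Adora1, Adora2a and Ptger3 did not pass the test. Adra1b and Adra2a were too low to be tested. So 4 of the 7 receptors tested were called (edgeR quasi-likelihood test, adjusted p under 0.05), 2 higher and 2 lower. Of all 14332 genes tested, 4.30% were called, 2.63% higher and 1.67% lower. The receptors were chosen with earlier results of these data known, so setting these shares side by side does not measure an excess. The 7 had at least 147 estimated counts in each library, so none passed the filter on low counts through 1 genotype alone. Their median log2 fold change was -0.10, beside -0.01 for all genes tested. In 5 of the 7 the libraries of the genotypes did not overlap, as in 29.0% of all genes tested. Fewer cells of a type and less RNA per cell cannot be told apart in tissue RNA.

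**Figure D1:**
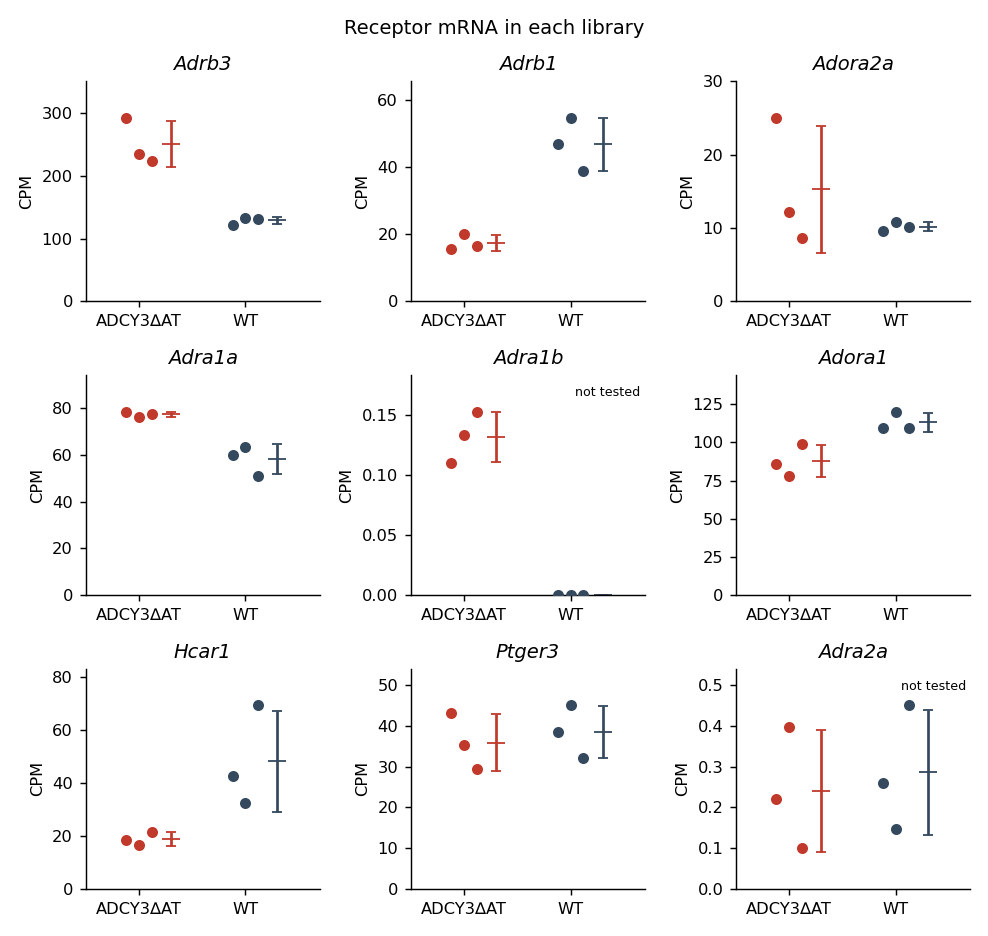
CPM of each of the 9 receptors (y axis, from 0) in each library, ADCY3∆AT in red on the left and WT in dark blue-grey on the right; points are replicates 1 to 3, the bar beside them the mean ± SD (n = 3). The 3 red points lie above the WT points for Adrb3 and Adra1a and below them for Adrb1, Adora1 and Hcar1, and Adra1b and Adra2a stay under 0.5 CPM.

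Adrb3 (ENSMUSG00000031489, chromosome 8, 27225776 to 27250616, minus strand, GRCm38) encodes the beta-3 receptor, through which noradrenaline mainly acts on rodent fat cells. It held 293, 235 and 224 CPM in ADCY3∆AT replicates 1 to 3, against 122, 133 and 131 CPM in WT. The ADCY3∆AT libraries were all above the WT ones, and replicate 1 stood highest. The rise was 1.94-fold (95% interval 1.65 to 2.30, edgeR adjusted p = 0.00435). The exact permutation p was 0.1, two-sided, the smallest that 3 libraries against 3 allow. The call held without any 1 library, with log2 fold changes from 0.84 to 1.04. A noncoding antisense gene, Gm45470, shares 839 exonic bases with Adrb3. It held 15.6 ± 0.967 CPM in ADCY3∆AT and 14.5 ± 2.16 CPM in WT (SD, n = 3 each; log2 fold change 0.12, edgeR adjusted p = 0.628). No label states whether strand was kept, so reads in the shared bases cannot be told apart. Gm45470 has 7624 exonic bases in all. The part of such reads in the Adrb3 difference was not tested.

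Adrb1 (ENSMUSG00000035283, chromosome 19, 56722199 to 56733113, plus strand) encodes the beta-1 receptor, the form that dominates in heart and is also present in brown fat precursors. It had 15.6, 20.0 and 16.3 CPM in ADCY3∆AT replicates 1 to 3, against 46.8, 54.7 and 38.8 CPM in WT. The highest ADCY3∆AT library lay well under the lowest WT one. Adrb1 fell 2.70-fold (95% interval 2.15 to 3.40, edgeR adjusted p = 0.00353; exact permutation p = 0.1, two-sided), and by p it stood at rank 28 among all genes tested, with Adrb3 at rank 41. Its call also held without any 1 library (log2 fold change from -1.55 to -1.31). In WT replicate 1, the WT library with the least muscle RNA, Adrb1 was at 46.8 CPM, near the WT mean of 46.7 CPM. Muscle markers still summed to 24.1 CPM in that library, against at most 2.97 CPM in ADCY3∆AT. The part of muscle RNA in the Adrb1 difference was not tested.

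The opposite changes of Adrb1 and Adrb3 altered the ratio of the pair inside each library, a measure that needs no scaling between libraries. Per kilobase of exon, the ratio of Adrb3 to Adrb1 was 18.8, 11.8 and 13.8 in ADCY3∆AT replicates 1 to 3, against 2.62, 2.44 and 3.39 in WT. The lowest ADCY3∆AT ratio was above the highest WT one. The ratio averaged 14.8 ± 3.64 in ADCY3∆AT and 2.82 ± 0.505 in WT (SD, n = 3 each). The summed level of Adrb1 and Adrb3 averaged 79.4 ± 10.6 CPM per kilobase in ADCY3∆AT and 52.0 ± 3.19 CPM per kilobase in WT. These ratios and sums follow from the changes of single genes above and are given without a test of their own.

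**Figure D2:**
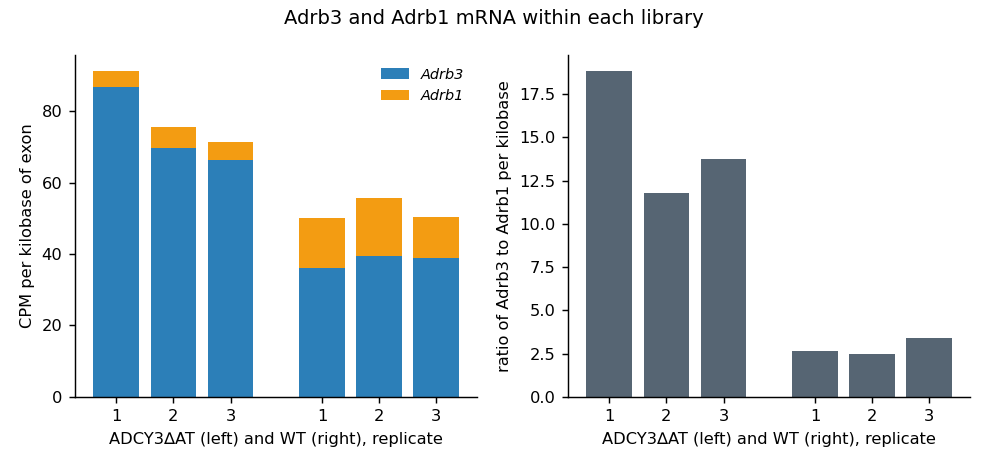
ADCY3∆AT replicates 1 to 3 are on the left of each panel and WT replicates 1 to 3 on the right. The left panel stacks Adrb3 (blue) and Adrb1 (orange) in CPM per kilobase of exon, and the right panel gives the ratio of Adrb3 to Adrb1, which is at least 11.8 in ADCY3∆AT and at most 3.39 in WT.

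Adora2a (ENSMUSG00000020178, chromosome 10), a Gs-coupled adenosine receptor, also stimulates adenylyl cyclase. It had 25.0, 12.2 and 8.66 CPM in ADCY3∆AT replicates 1 to 3, against 9.60, 10.9 and 10.1 CPM in WT. Replicate 1 alone stood high among the ADCY3∆AT libraries, and the groups overlapped. The log2 fold change was 0.58 (edgeR adjusted p = 0.355, 95% interval -0.20 to 1.37), and 0.030 without ADCY3∆AT replicate 1. In that library the 9 nerve and Schwann cell markers also summed highest, to 147 CPM, against 118.8 and 87.8 CPM in ADCY3∆AT replicates 2 and 3 and 82.7 to 90.3 CPM in WT. Endothelial markers summed highest there too, to 651 CPM, against 575 and 559 CPM in ADCY3∆AT replicates 2 and 3 and 561 to 624 CPM in WT. Among them Cldn5, a tight junction gene named after its values were seen, had 58.5, 20.3 and 17.9 CPM in ADCY3∆AT replicates 1 to 3, against 11.9, 13.97 and 14.7 CPM in WT. The endothelial list was split in ADCY3∆AT replicate 1. Esam (87.2 CPM) and Pecam1 (116.8 CPM) were also at their highest of all libraries there. Kdr (87.8 CPM), Egfl7 (65.9 CPM) and Tek (30.7 CPM) were at their lowest, and Cdh5 and Vwf lay between. The part of either marker list in the high Adora2a value was not tested.

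Of the alpha-1 receptors, which act through Gq, Adra1a was expressed and Adra1b was close to absent from the counts. Adra1a (ENSMUSG00000045875, chromosome 14, 66635251 to 66771168, plus strand) had 78.4, 76.0 and 77.3 CPM in ADCY3∆AT replicates 1 to 3, against 60.0, 63.3 and 51.0 CPM in WT. The ADCY3∆AT libraries were tightly grouped and all above the WT ones. Adra1a rose 1.33-fold (95% interval 1.16 to 1.53, edgeR adjusted p = 0.0415; exact permutation p = 0.1, two-sided). Its call ended without any 1 of the 6 libraries (log2 fold change from 0.33 to 0.48, edgeR adjusted p from 0.0521 to 0.131). Adra1b (chromosome 11) had 2, 2.42 and 3 estimated counts in ADCY3∆AT replicates 1 to 3 and 0 in each WT library. A count of 0 allows up to 3 counts, or 0.169 to 0.222 CPM here, and this covers counting error only. With no filter on low counts Adra1b was not called (log2 fold change 4.22, edgeR adjusted p = 0.247). Its exact permutation p was 0.1, two-sided, so at this depth a difference was neither shown nor excluded.

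Among the antilipolytic receptors, Hcar1 (ENSMUSG00000049241, chromosome 5, 123876736 to 123880020, minus strand) encodes the Gi-coupled lactate receptor of adipocytes. It held 18.3, 16.4 and 21.5 CPM in ADCY3∆AT replicates 1 to 3, against 42.6, 32.4 and 69.2 CPM in WT. The WT libraries were spread widely but all lay above the ADCY3∆AT ones. Hcar1 fell 2.57-fold (95% interval 1.72 to 3.84, edgeR adjusted p = 0.0275; exact permutation p = 0.1, two-sided). The call ended without WT replicate 1 or without any 1 ADCY3∆AT library (log2 fold change from -1.47 to -1.27, edgeR adjusted p from 0.0577 to 0.0985). Without WT replicate 3, the library with the highest Hcar1 and the most muscle RNA, the log2 fold change was -0.9996 and the call held (edgeR adjusted p = 0.0288). The part of muscle RNA in the Hcar1 difference was not tested.

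The promoter sequences of the receptors that fell are shown because the pathway under study acts on DNA through the cyclic AMP response element, whose half-site is TGACG. Both are from RefSeq on GRCm38.p6, the 250 bases before the start, 5′ to 3′ on the gene's strand, with any half-site on either strand in capitals. The Adrb1 window is chr19:56721867-56722116 on the plus strand, and the Hcar1 window is chr5:123880004-123880253 on the minus strand.
Adrb1: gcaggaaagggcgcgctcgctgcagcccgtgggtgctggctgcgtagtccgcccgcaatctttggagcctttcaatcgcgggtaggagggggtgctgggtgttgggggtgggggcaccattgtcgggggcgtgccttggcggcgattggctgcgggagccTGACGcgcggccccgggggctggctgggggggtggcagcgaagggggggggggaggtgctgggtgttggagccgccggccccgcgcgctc
Hcar1: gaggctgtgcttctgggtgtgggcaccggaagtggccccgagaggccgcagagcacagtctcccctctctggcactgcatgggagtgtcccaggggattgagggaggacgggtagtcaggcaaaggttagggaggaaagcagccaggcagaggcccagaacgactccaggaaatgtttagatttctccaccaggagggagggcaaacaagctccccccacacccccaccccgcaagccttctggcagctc
The Adrb1 window held 1 half-site, 90 bases before the start, and no full element TGACGTCA, while the Hcar1 window held neither. RefSeq windows were found for 6 of the 9 receptors, 8 windows in all, of which 2 held a half-site (Adrb1 and Adra2a). None was found for Adrb3, Adra1a or Adora2a, so the receptors that rose could not be searched. Of 32841 promoter windows of this length, 17.8% held the half-site and 1.55% the full element. A match of letters is a description and not a binding site.

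Adora1 (ENSMUSG00000042429, chromosome 1, 134199223 to 134235431, minus strand) encodes the Gi-coupled adenosine receptor that restrains lipolysis. It had 86.0, 78.0 and 98.6 CPM in ADCY3∆AT replicates 1 to 3, against 109, 120.2 and 109.6 CPM in WT. The ADCY3∆AT libraries were all below the WT ones, but the difference did not pass the test (log2 fold change -0.37, edgeR adjusted p = 0.0687, 95% interval -0.58 to -0.15). It was called without ADCY3∆AT replicate 3 (edgeR adjusted p = 0.0482) and in DESeq2 (adjusted p = 0.0214), and over all alternatives its adjusted p ran from 0.00649 to 0.176. Mybph, a skeletal muscle gene on the other strand, shares 1162 exonic bases with Adora1. Its own row held 1.33, 1.29 and 2.90 estimated counts in ADCY3∆AT replicates 1 to 3 and 7.56, 1.77 and 12.4 in WT, while the Adora1 row held at least 1174 in each library.

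Ptger3 (ENSMUSG00000040016, chromosome 3), the Gi-coupled prostaglandin E2 receptor through which this lipid lowers lipolysis, had 43.1, 35.3 and 29.3 CPM in ADCY3∆AT replicates 1 to 3, against 38.4, 45.0 and 32.1 CPM in WT. The groups overlapped almost fully (log2 fold change -0.10, edgeR adjusted p = 0.763, 95% interval -0.47 to 0.27). The sign turned without ADCY3∆AT replicate 3 (0.031) and without WT replicate 2 (0.028). Adra2a (chromosome 19), the adrenergic receptor that couples to Gi, had 4, 6 and 2 estimated counts in ADCY3∆AT replicates 1 to 3 and 4, 2 and 8 in WT, which is too few to compare.

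**Figure D3:**
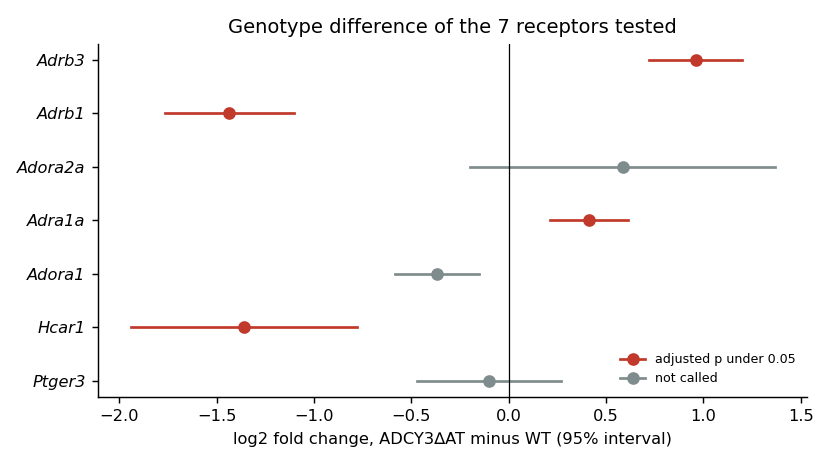
Log2 fold change, ADCY3∆AT minus WT (x axis), with its 95% interval for the 7 receptors tested; red marks an edgeR adjusted p under 0.05 and grey the others. Adrb3 (0.96) and Adra1a (0.41) lie right of 0, Adrb1 (-1.43) and Hcar1 (-1.36) left of it, and the intervals of Adora2a and Ptger3 include 0.

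Ranked by level per kilobase of exon, Adrb3 stood first in both genotypes and Adora1 next. In ADCY3∆AT, Adrb3 had 74.3 ± 10.9, Adora1 15.1 ± 1.80 and Adra1a 8.85 ± 0.140 CPM per kilobase, each group of libraries clear of the next. Ptger3 (6.31 ± 1.22), Hcar1 (5.70 ± 0.777), Adrb1 (5.12 ± 0.698) and Adora2a (4.99 ± 2.82) followed, and neighbours in that run overlapped. In WT, Adrb3 had 38.2 ± 1.78, Adora1 19.5 ± 1.07, Hcar1 14.6 ± 5.78 and Adrb1 13.8 ± 2.35 CPM per kilobase, of which Adora1, Hcar1 and Adrb1 overlapped with their neighbours. Ptger3 (6.77 ± 1.13) and Adra1a (6.66 ± 0.727) overlapped in WT, and Adora2a (3.33 ± 0.207) came after them (SD, n = 3 throughout). Hcar1 made up 20.9 ± 1.56% of the summed level of the 4 Gi-coupled receptors in ADCY3∆AT and 35.1 ± 10.3% in WT, and Adora1 made up 55.6 ± 3.31% in ADCY3∆AT and 48.0 ± 6.25% in WT. The summed levels per kilobase were 27.2 ± 2.14 for the 4 Gi-coupled receptors in ADCY3∆AT and 41.0 ± 4.12 in WT. For the Gs-coupled Adrb1, Adrb3 and Adora2a together they were 84.4 ± 13.4 in ADCY3∆AT and 55.4 ± 3.38 in WT. These sums follow the single genes and were not tested. The order and the sums rest on the union of annotated exons. With mean transcript lengths, Adra1a and Adra1b together went from 8.89 to 21.8 CPM per kilobase in ADCY3∆AT and from 6.66 to 16.4 in WT. In WT, Adrb1 went from 13.8 to 27.1 and Adrb3 from 38.2 to 90.7 CPM per kilobase. Whether the full order and the sums hold with those lengths was not tested.

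**Figure D4:**
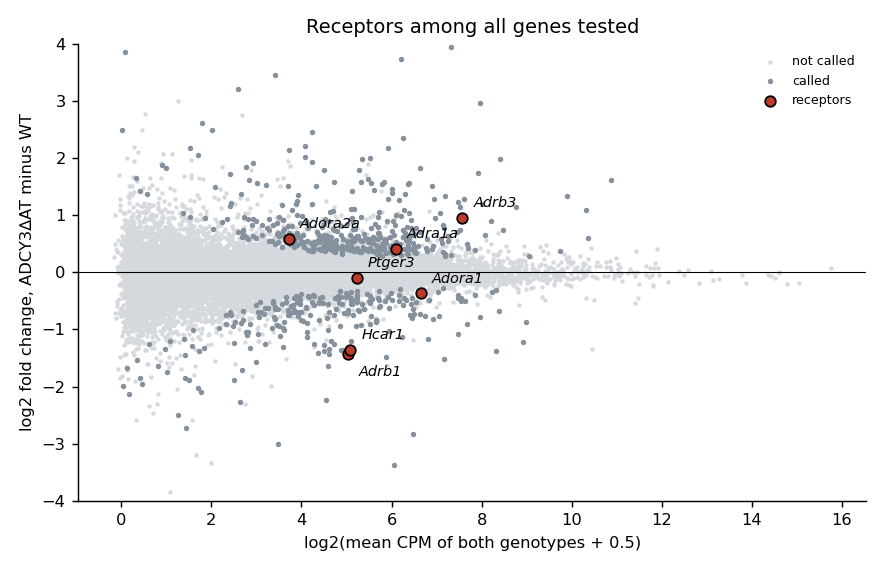
Each point is 1 of the 14332 genes tested, placed by log2(mean CPM + 0.5) on the x axis and by log2 fold change, ADCY3∆AT minus WT, on the y axis, with called genes in darker grey and the 7 receptors in red. The y axis is limited to 4 in either direction, which leaves 19 genes out of view; Adrb3 lies at 0.96, Adrb1 at -1.43 and Hcar1 at -1.36.

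The genes whose profile over the 6 libraries was most like that of each called receptor were found by the root mean square difference of centred log2 CPM, among 11627 other named genes. Nearest to Adrb1 were Tfrc, the transferrin receptor (difference 0.09), the nuclear receptor gene Nr4a2 (0.15) and Entpd4, which encodes a Golgi nucleotidase (0.17). All 3 were called lower, with Entpd4 at 176 ± 23.3 CPM in ADCY3∆AT and 458 ± 30.7 CPM in WT (SD, n = 3 each; edgeR adjusted p = 0.00112). Nearest to Adrb3 were Crebrf (0.07), which encodes a regulator of a CREB-family factor, the cysteinyl-tRNA synthetase gene Cars (0.10) and Lrrc8a (0.10), a subunit of volume-regulated anion channels. Nearest to Hcar1 were Nnmt, the nicotinamide methyltransferase gene (0.18), the insulin-responsive Angptl8 (0.21) and Apcdd1 (0.22), and nearest to Adra1a were Khdc4 (0.01), Nfx1 (0.02) and Mrtfa (0.02). Likeness over 6 libraries includes the genotype difference itself.

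Relatives of the 9 receptors were mostly weakly expressed. Of 10 other adrenergic, adenosine, prostaglandin E and hydroxycarboxylic acid receptors, 8 were tested, 0 rose, 1 fell and 7 were not called (4.30% of all genes tested were called). Ptger4, a Gs-coupled prostaglandin E2 receptor, held 3.64 ± 0.112 CPM in ADCY3∆AT and 5.93 ± 0.496 CPM in WT (SD, n = 3 each; log2 fold change -0.70, edgeR adjusted p = 0.0446), and its call ended without any 1 library. The median log2 fold change of the 8 was -0.71, beside -0.01 for all genes tested. Of the 8, 5 had an unadjusted edgeR p under 0.05, all lower in ADCY3∆AT, beside 22.6% of all genes tested. Of 30 further receptors of fat that act on cyclic AMP or cyclic GMP, 23 were tested, 1 rose, 3 fell and 19 were not called. An unadjusted edgeR p under 0.05 was found for 8 of the 23. Sucnr1, the succinate receptor, held 0.692 ± 0.0875 CPM in ADCY3∆AT and 2.35 ± 0.294 CPM in WT (SD, n = 3 each; edgeR adjusted p = 0.0131, log2 fold change -1.75). The other falls were Adcyap1r1, the receptor for the neuropeptide PACAP (log2 fold change -0.83), and the sphingosine phosphate receptor S1pr3 (-0.78). The rise was its relative S1pr1 (0.56, edgeR adjusted p = 0.0378), named after its value was seen. Without ADCY3∆AT replicate 2 this list had 0 calls, and without any 1 WT library it had 1.

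Genes on either side of the receptors are read against the share of all genes tested that were called, 4.30%, or that had an unadjusted p under 0.05, 22.6%. In receptor coupling and desensitisation, 19 genes were tested and 1 was called: Rgs2, which speeds up the turn-off of Gq, rose (180 ± 38.5 CPM in ADCY3∆AT and 105 ± 12.4 CPM in WT, SD, n = 3 each; log2 fold change 0.78, edgeR adjusted p = 0.0346). That call held only without ADCY3∆AT replicate 2 among the fits without 1 library. In this list 7 of the 19 genes tested had an unadjusted edgeR p under 0.05. Libraries did not overlap between genotypes for 9 of the 19, beside 29.0% of all genes tested. Gnas, which encodes the alpha subunit of Gs, differed by 0.37 on the log2 scale without passing the test (adjusted p = 0.219 in edgeR). Grk2, a kinase that desensitises beta-adrenergic receptors, differed by 0.14 (adjusted p = 0.278 in edgeR), and both were picked after their values were seen.

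For the ligands and for lipolysis, the counts called and those at an unadjusted p under 0.05 stand beside 4.30% and 22.6% of all genes tested. Of 5 tested genes of noradrenaline synthesis and clearance, 0 were called by edgeR, by limma-voom or by DESeq2, while 1 had an unadjusted p under 0.05. This was Maob, an amine oxidase (91.8 ± 1.60 CPM in ADCY3∆AT and 79.4 ± 4.02 CPM in WT, SD, n = 3 each; edgeR adjusted p = 0.112). Th, Ddc, Dbh and Slc6a2 were below the filter on low counts. Of 9 genes of adenosine supply 0 were called by edgeR, by limma-voom or by DESeq2, while 0 had an unadjusted p under 0.05; the smallest p was that of the transporter Slc29a1 (76.4 ± 9.47 CPM in ADCY3∆AT and 52.0 ± 21.4 CPM in WT, SD, n = 3 each; edgeR adjusted p = 0.281). Of 7 genes of lactate and ketone supply 0 were called by edgeR, by limma-voom or by DESeq2, while 1 had an unadjusted p under 0.05, the transporter Slc16a7 (log2 fold change -0.33, edgeR adjusted p = 0.172). Among 8 genes of prostaglandin E2 supply, 1 rose: Ptges3, which is both a prostaglandin E synthase and a cochaperone of HSP90, held 122 ± 18.7 CPM in ADCY3∆AT and 75.3 ± 9.18 CPM in WT (SD, n = 3 each; edgeR adjusted p = 0.0267). Its call ended without ADCY3∆AT replicate 2 or 3 or WT replicate 1 or 2. Downstream, 0 of 12 lipolysis effectors were called by edgeR, by limma-voom or by DESeq2, while 1 had an unadjusted p under 0.05, the glycerol channel Aqp7 (log2 fold change 0.22, edgeR adjusted p = 0.139).

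**Figure D5:**
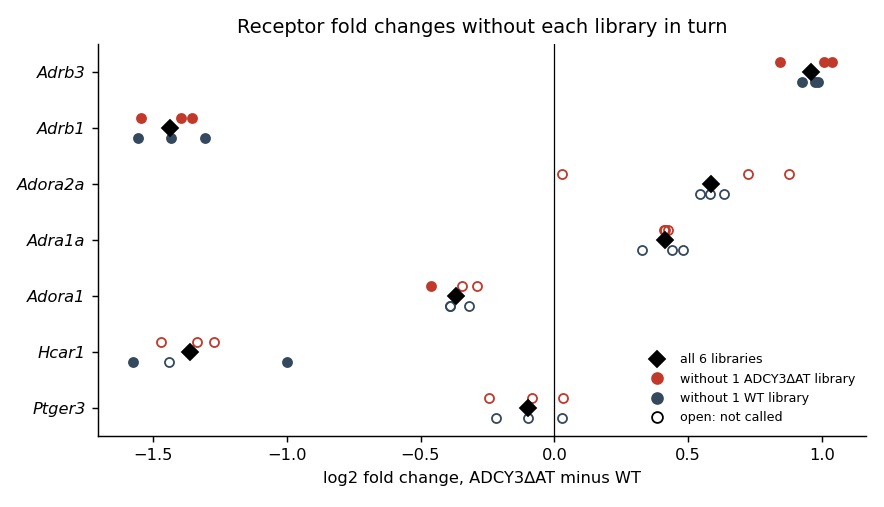
Log2 fold change, ADCY3∆AT minus WT (x axis), of the 7 receptors with all 6 libraries (black diamonds) and without 1 ADCY3∆AT library (red) or 1 WT library (dark blue-grey) in turn; filled circles were called and open ones were not. Circles of Adrb3 and Adrb1 are all filled, those of Adra1a are all open, and Adora2a reaches 0.030 without ADCY3∆AT replicate 1.

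Markers of other cell types were compared because several of these receptors are also made outside adipocytes. In ADCY3∆AT and WT, the summed markers ran from 559 to 651 and from 561 to 624 CPM for endothelium, from 50.3 to 89.8 and from 55.8 to 97.7 CPM for macrophages, from 609 to 630 and from 543 to 611 CPM for mural and smooth muscle cells, and from 261 to 432 and from 304 to 468 CPM for fibroblasts and preadipocytes. Lymphocyte markers summed to at most 4.25 CPM in ADCY3∆AT and 3.49 CPM in WT. Nerve and Schwann cell markers ran from 87.8 to 147 CPM in ADCY3∆AT and from 82.7 to 90.3 CPM in WT. Erythroid markers ran from 728 to 1379 CPM in ADCY3∆AT and from 805 to 1720 CPM in WT. The mural list had 1 call, Cspg4, a pericyte proteoglycan, which fell (70.1 ± 2.96 CPM in ADCY3∆AT and 103 ± 7.19 CPM in WT, SD, n = 3 each; edgeR adjusted p = 0.00933). Of the other lists, 0 of 8 endothelial, 0 of 8 macrophage and 0 of 8 fibroblast genes were called by edgeR. Nor were any nerve and Schwann cell genes (0 of 5), erythroid genes (0 of 5) or the lymphocyte gene Cd79a (0 of 1). DESeq2 made 1 endothelial call and limma-voom made 0. Beside these counts and that of the mural list, edgeR called 4.30% of all genes tested. At an unadjusted edgeR p under 0.05 there were 4 endothelial genes, led by Egfl7 (log2 fold change -0.27, edgeR adjusted p = 0.0540). They split in direction, with Kdr also lower (-0.35) and Cldn5 (1.25) and Esam (0.43) higher. Also under 0.05 were 3 nerve genes, led by Mbp (0.51, edgeR adjusted p = 0.159), and 2 of 8 mural genes, Cspg4 and Rgs5. All 5 nerve genes tested had a positive log2 fold change (median 0.53). The macrophage, fibroblast, erythroid and lymphocyte lists had 0, while 22.6% of all genes tested were under 0.05. DESeq2 called 2 mural genes, 1 higher and 1 lower. The most abundant markers were Cdh5 of endothelium (log2 fold change -0.05), Rgs5 of mural cells (0.32), Col3a1 of fibroblasts (-0.20), Lyz2 of macrophages (0.09), S100b of nerve (0.03) and Hbb-bs of erythroid cells (-0.18), with 0 of these 6 called by edgeR. Smallest in p were Itgam of macrophages (0.45), Lum of fibroblasts (-0.39) and Hba-a1 of erythroid cells (-0.38).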

How the data were processed

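Per the labels' protocols, RNA was extracted from TRIzol lysates on spin columns and paired-end NEBNext Ultra II libraries were made from it. The deposited table holds estimated counts per gene, as its 3-decimal values show (38% of those above 0 were whole within 0.0005). The submitters' processing notes name GRCm38, StringTie, Salmon and edgeR, without versions or roles. Symbols, positions and exon lengths came from GENCODE M21, which matched 54131 rows and left 254 unmatched.

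The counts were rounded. Filtering used filterByExpr (minimum count 10, minimum total 15), scaling used TMM, and genotypes were compared with the quasi-likelihood F test of edgeR 4.0.16 (R 4.3.3) over 14332 genes, with Benjamini-Hochberg adjustment and a threshold of 0.05. Fold changes are ADCY3∆AT over WT. CPM are TMM-scaled, and levels per kilobase divide them by the union of annotated exons. Single values were also given an exact two-sided permutation test of log2(CPM + 0.5). Promoter sequences are from RefSeq.

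The receptors and gene lists were chosen with earlier results of these data known. Named genes are the 9 receptors, up to 3 called genes of each list in order of p (where none was called, the gene leading by p), the most abundant marker of each marker list, and the 3 genes most like each called receptor. Pairs of libraries within a genotype were further apart than counting noise allows (chi-square averaged over genes, from 6.34 to 26.6 by pair). No label says that they come from separate mice, so p-values measure the spread between libraries, which may be technical. Same-numbered libraries did not deviate together (correlations from -0.05 to 0.01). DESeq2 1.42.0 and limma-voom (limma 3.58.1) were alternatives. The list counts include 1 gene that is not reported here by name.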

Additional observations from a re-analysis of the deposited data

How the results depend on the processing

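With TMM replaced by DESeq2 size factors, upper-quartile factors or library size alone, 4 receptors were called each time, as with limma-voom and the filter of CPM above 1 in 3 libraries. The count was 5 with DESeq2 or at adjusted p under 0.10, 3 with robust quasi-likelihood or the replicate block, 6 with no filter on low counts, and from 2 to 3 without 1 library. Adrb1 and Adrb3 kept their direction and call in all of these. With the replicate block Adra1a was not called (log2 fold change 0.42, edgeR adjusted p = 0.0779). No label says whether the replicate numbers pair the libraries. Hcar1 was not called with robust quasi-likelihood (log2 fold change -1.36, adjusted p = 0.0716). Adora1 was called with DESeq2 (-0.37) and with no filter (-0.34), and Adora2a with no filter (0.61, adjusted p = 0.000538, from 0.000538 to 0.939 over all alternatives). The cause was not tested. Leaving out 1 library in turn gave 0.33 to 0.48 for Adra1a, -0.46 to -0.29 for Adora1, 0.030 to 0.88 for Adora2a, -1.57 to -0.9996 for Hcar1 and -0.24 to 0.031 for Ptger3, all as log2 fold changes, with Ptger3 turning sign without ADCY3∆AT replicate 3 (0.031) and WT replicate 2 (0.028). The other lists had 15 calls in all, 25 with DESeq2, 8 with limma-voom, 8 with robust quasi-likelihood, 45 with no filter and from 2 to 12 without 1 library. Without 1 library there were 162 to 461 calls among all genes, against 616, and 324 with the replicate block, 993 with DESeq2 and 1951 with no filter. Upper-quartile factors called 282 higher and 274 lower, against 377 and 239. With mean transcript lengths the ratio of Adrb3 to Adrb1 was 17.9 in ADCY3∆AT and 3.41 in WT. Pseudocounts of 0.05 and 1 changed no sign. Depth limits Adra1b and Adra2a, with at most 8 counts in a library.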

Other observations

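Mc5r, a melanocortin receptor that couples to Gs, had the next smallest p after the called genes among the wider receptors of fat and was picked for its values. It held 15.3, 11.2 and 5.82 CPM in ADCY3∆AT replicates 1 to 3, against 3.13, 1.55 and 4.397 CPM in WT. The genotypes did not overlap, with means of 10.8 ± 4.76 CPM in ADCY3∆AT and 3.03 ± 1.43 CPM in WT (SD, n = 3 each). The difference of 1.80 on the log2 scale (SE 0.42) missed the threshold (adjusted p = 0.0514 in edgeR).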
